A study of Homo sapiens with 2 samples.

Results

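TNF and its relatives form a family of trimeric ligands, and the receptors they bind form a matching superfamily of membrane proteins. The 10 genes described here were the ligands TNF, LTB, TNFSF10 and TNFSF15 and the receptors TNFRSF1A, TNFRSF1B, TNFRSF9, TNFRSF10B, FAS and CD40, out of 56638 genes with a row of their own in the deposited tables. They were chosen by symbol with results of this same comparison already known, so the differences between the libraries that chose them are given below as a description. RNA was sequenced from TFK1, an established human cholangiocarcinoma cell line, which carried either a short hairpin RNA (shRNA) against MBD2 or a negative control shRNA, both delivered by lentivirus from the pLKO.1 vector and followed by drug selection, for which the methods name puromycin or G-418 without saying which was used here. Each condition has 1 library, no other treatment is given in the labels, and the labels do not say which MBD2 shRNA was sequenced. MBD2 is a reader of methylated CpG dinucleotides. With a single library on each side no test was possible, no difference has a replicate check, and every interval below (95%) covers counting error only.

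Receptors of this superfamily fall into those with an intracellular death domain, here TNFRSF1A, TNFRSF10B and FAS, and those that recruit TRAF adaptors directly, here TNFRSF1B, TNFRSF9 and CD40. The death domain receptors can assemble a complex that activates caspase 8, and TNFRSF1A also builds a ubiquitin-dependent complex that activates NF-kB. TNF and LTB are themselves known NF-kB target genes, so the pathway can feed back on its own ligands. Bile duct epithelium expresses TRAIL receptors and FAS, which are known in this tissue for cholangiocyte death in inflammatory disease.

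The gene counts summed to 14728814 in the MBD2 shRNA library and 14467406 in the control library. MBD2 had 365 counts with the MBD2 shRNA and 1013 with the control, or 15.6 and 44.6 TPM (a level corrected for gene length and scaled to the same total, 1000000, in each library). Its log2 fold change, always given as MBD2 shRNA over control on normalized counts, was -1.48 (-1.66 to -1.31). The defining keratins of biliary epithelium were high in both, with KRT8 at 3006 and 3890 TPM, KRT7 at 1160 and 1327 TPM, and KRT18 at 526 and 686 TPM. None of the 11 biliary markers with enough reads lay past 1 or -1, and their median log2 fold change was -0.34.

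The promoters of 4 members are shown first, those with the largest differences, because their levels separate the libraries. That of TNFRSF1A is shown as the promoter of the most abundant member. They are the 250 bases before each RefSeq start site (GRCh38.p14), written 5′ to 3′ on the strand of the gene, for TNFRSF9 at chr1:7940840-7941089 (minus strand), LTB at chr6:31582426-31582675 (minus), TNF at chr6:31575315-31575564 (plus), TNFRSF1B at chr1:12166741-12166990 (plus) and TNFRSF1A at chr12:6342077-6342326 (minus). Capitals mark matches to the NF-kB consensus GGGRNWYYCC and to the AP-1 motif TGANTCA, both searched on both strands. They also mark the TATA motif TATAAA, searched on the sense strand. In these motifs R is A or G, W is A or T, Y is C or T, and N is any base.
TNFRSF9: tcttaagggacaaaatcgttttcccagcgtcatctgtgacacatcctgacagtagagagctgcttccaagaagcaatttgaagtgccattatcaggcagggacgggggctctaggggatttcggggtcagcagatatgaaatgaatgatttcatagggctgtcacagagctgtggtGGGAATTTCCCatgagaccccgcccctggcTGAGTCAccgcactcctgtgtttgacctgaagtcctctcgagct
LTB: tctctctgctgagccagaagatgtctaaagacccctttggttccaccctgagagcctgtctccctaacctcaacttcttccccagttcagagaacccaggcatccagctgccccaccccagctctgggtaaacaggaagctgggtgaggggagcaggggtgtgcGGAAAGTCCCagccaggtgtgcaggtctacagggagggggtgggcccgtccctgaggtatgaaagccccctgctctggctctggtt
TNF: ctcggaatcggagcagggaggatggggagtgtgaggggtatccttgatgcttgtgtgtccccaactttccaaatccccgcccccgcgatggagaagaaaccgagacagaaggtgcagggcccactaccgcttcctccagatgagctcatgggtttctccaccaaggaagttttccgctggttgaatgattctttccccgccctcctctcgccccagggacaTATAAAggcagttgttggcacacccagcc
TNFRSF1B: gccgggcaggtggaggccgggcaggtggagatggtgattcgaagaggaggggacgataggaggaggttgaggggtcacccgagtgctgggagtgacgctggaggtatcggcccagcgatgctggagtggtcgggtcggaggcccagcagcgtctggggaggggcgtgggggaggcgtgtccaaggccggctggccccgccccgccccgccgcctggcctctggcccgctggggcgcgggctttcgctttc
TNFRSF1A: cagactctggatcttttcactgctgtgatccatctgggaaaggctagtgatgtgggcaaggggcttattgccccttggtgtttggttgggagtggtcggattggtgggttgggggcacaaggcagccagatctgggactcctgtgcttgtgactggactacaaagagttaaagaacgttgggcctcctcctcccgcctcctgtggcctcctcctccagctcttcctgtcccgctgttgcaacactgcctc

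A RefSeq promoter was matched for 8 of the 10 members. Matches to the NF-kB consensus were found in 2 of these 8, TNFRSF9 and LTB, and in 5.05% of all 27305 promoters of the same length. In TNFRSF9 the match GGGAATTTCCC covers positions -74 to -64 from the start site, counted as overlapping matches on both strands of a single stretch, and in LTB the match GGAAAGTCCC covers -86 to -77. FAS has 3 annotated starts, and 1 of them, not the start used for the comparison, also has an NF-kB match before it. The AP-1 motif was found in TNFRSF9 at -44, TNFSF15 at -120 and FAS at -242, which is 3 of 8 against 6.60% of all promoters. The TATA motif was found in TNF at -29 and TNFSF10 at -31, which is 2 of 8 against 7.17%. The GC box GGGCGG, searched on both strands, was in 4 of 8 against 42.3%. These are matches of letters in a window and not measured binding sites. A stretch that differs from a motif by even 1 base is not counted, so a window without a match, such as that of TNF for NF-kB, is not shown to lack a site. The members were selected on this contrast, so nothing is read from these shares. The windows of TNFSF15 (chr9:114792531-114792780, minus) and TNFRSF9 lie wholly inside their genes in the GENCODE 29 annotation (GRCh38). There these minus-strand genes reach up to 114806126 and 7943165, so both windows precede a start within the gene and not its outermost one.

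CpG dinucleotides, the bases that carry the mark MBD2 reads, were unevenly spread over these windows. TNFRSF1B had 22 in 250 bases, FAS 14, TNF 10, TNFRSF9 7 and TNFRSF1A 4, while LTB, TNFSF10 and TNFSF15 each had 2. The median over all promoters was 11. Among the members with the largest differences, TNFRSF1B lay above that median, while TNF, TNFRSF9 and LTB lay below it. LTB was among the lowest and TNFRSF1B the highest of the 8. Methylation itself was not measured in these libraries.

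**Figure D1:**
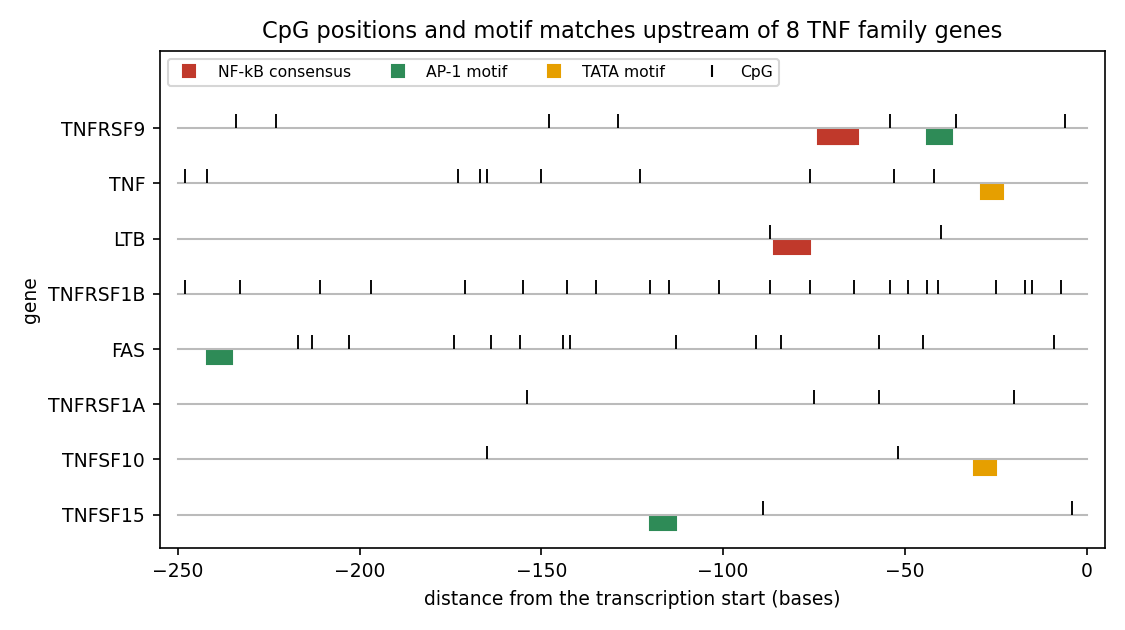
Map of the 250 bases before the start site of the 8 members with a RefSeq promoter, with distance from the start in bases on the horizontal axis, CpG dinucleotides as ticks and motif matches as coloured marks. TNFRSF1B carries 22 CpG and LTB, TNFSF10 and TNFSF15 carry 2 each, and the NF-kB matches of TNFRSF9 and LTB lie within 86 bases of the start.

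Across the 10 members, 4 had a log2 fold change above 1 and 0 had one below -1, where 5.48% of the 17545 genes tested lay above 1 and 5.07% lay below -1. A gene counts as tested when it had at least 10 counts summed over both libraries. Nothing is read from that difference, since the members were selected on this contrast. All 10 members were tested, and 4 of them (TNF, LTB, TNFRSF1B and TNFRSF9) had at least 10 counts only with the MBD2 shRNA, so that their inclusion and their direction go together. In sign, 7 members were higher and 3 lower with the MBD2 shRNA, and the median log2 fold change was 0.44, beside -0.0082 over all genes tested.

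**Figure D2:**
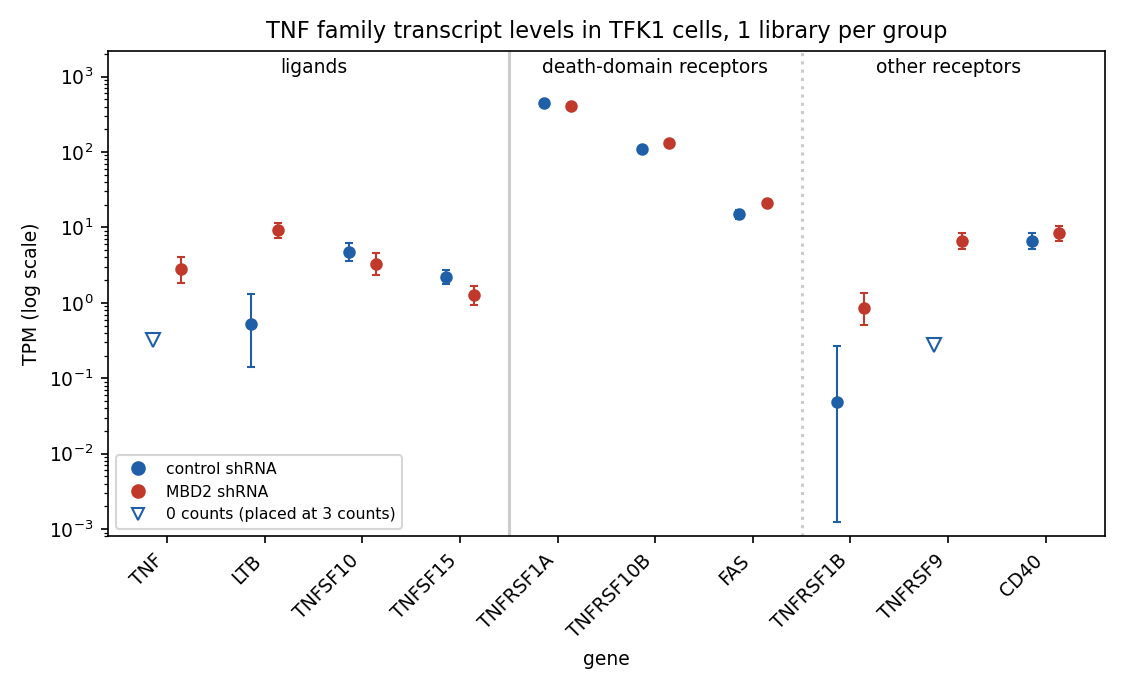
TPM of the 10 members on a log axis in each library, with exact Poisson intervals as bars and open triangles for 0 counts, placed at the TPM of 3 counts. TNFRSF1A, TNFRSF10B and FAS sit at the top in both libraries, and TNF, LTB, TNFRSF1B and TNFRSF9 are the members whose levels separate.

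Among the ligands, TNF (ENSG00000232810, chromosome 6 from 31543344 to 31546113, plus strand) is the founding inflammatory cytokine of the family and binds both TNFRSF1A and TNFRSF1B. Gene positions here and below are as deposited, in a build the tables do not state and which does not give the GRCh38 positions, so they cannot be set against the promoter coordinates above. It had 27 counts with the MBD2 shRNA and 0 with the control, or 2.82 TPM (1.86 to 4.10) against 0, where 3 counts would be 0.321 TPM. Against 3 counts in the control library it would be 8.94-fold higher with the MBD2 shRNA. That figure leaves out the counting error of the 27 counts. The interval of its log2 fold change started at 2.76 and had no upper end. The tables list TNF on 8 rows with the same values, which belong to alternative haplotypes of the major histocompatibility complex, and 1 row was used. In the RNA of a whole culture, fewer cells of a kind and less RNA per cell cannot be told apart, so a level of 2.82 TPM does not say how many cells made TNF.

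LTB (ENSG00000227507, chromosome 6 from 31548302 to 31550299, minus strand) encodes lymphotoxin beta, which anchors lymphotoxin alpha at the membrane as the ligand of LTBR. LTB had 73 counts with the MBD2 shRNA and 4 with the control. Its level was 9.20 TPM (7.21 to 11.6) and 0.517 TPM (0.141 to 1.32), and the intervals are far apart. The log2 fold change was 4.02 (2.76 to 6.09), which is an 18.1-fold ratio of normalized counts. It was the most abundant of the 4 ligands with the MBD2 shRNA and lay below TNFSF10 and TNFSF15 with the control. Its partner LTA, the gene next to TNF, had 0 counts in both libraries, whereas the receptor LTBR was abundant and close to level, at 139 and 144 TPM.

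TNF and LTB are neighbours, 2189 bases apart. Of the 17 genes within 50 kb of TNF, 5 were tested and LTB alone lay past 1 or -1, apart from TNF itself. DDX39B, an RNA helicase, had 990 and 948 counts with a log2 fold change of 0.054, and PRRC2A had 3297 and 3416 counts at -0.060. NFKBIL1 had 62 and 49 counts at 0.33, and ATP6V1G2 had only 4 and 7 counts, at -0.75. The leukocyte genes of the same stretch were at or near 0, with LST1 at 2 and 3 counts, AIF1 at 0 and 2, and NCR3 at 0 in both.

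TNFSF10 and TNFSF15 were the ligands with lower values. TNFSF10 (ENSG00000121858, chromosome 3 from 172223298 to 172241297, minus strand) encodes TRAIL, which triggers apoptosis through TNFRSF10A and TNFRSF10B. It had 37 counts with the MBD2 shRNA and 52 with the control, or 3.31 TPM (2.33 to 4.57) and 4.78 TPM (3.57 to 6.27). Its log2 fold change was -0.49, with an interval from -1.15 to 0.14 that includes 0, so a difference was not detectable at this depth. TNFSF15 (ENSG00000181634, chromosome 9 from 117546915 to 117568406, minus strand) encodes TL1A, the ligand of TNFRSF25. It had 48 and 83 counts, or 1.26 TPM (0.926 to 1.66) and 2.23 TPM (1.77 to 2.76), with a log2 fold change of -0.79 (-1.34 to -0.27). Summed over the 4 ligands, the level was 16.6 TPM with the MBD2 shRNA and 7.52 TPM with the control, and LTB made the largest part of the first sum and TNFSF10 of the second.

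The death domain receptors carried nearly all of the summed level of the 10 members. TNFRSF1A (ENSG00000067182, chromosome 12 from 6437923 to 6451280, minus strand), the widely expressed TNF receptor, had 5152 counts with the MBD2 shRNA and 5481 with the control, or 405 TPM (394 to 417) and 442 TPM (431 to 454). Its log2 fold change was -0.098 (-0.15 to -0.043), a narrow interval set by its depth. It held 68.7% of the members' summed TPM with the MBD2 shRNA and 75.9% with the control. It was the highest of the 10 members in both libraries, more than 3 times the level of the next.

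TNFRSF10B (ENSG00000120889, chromosome 8 from 22877646 to 22926692, minus strand) encodes DR5, a TRAIL receptor with a death domain. It had 3111 and 2570 counts, or 131 TPM (127 to 136) and 111 TPM (107 to 116), with a log2 fold change of 0.27 (0.19 to 0.34). TNFRSF10A, the other TRAIL death receptor, was at 22.9 and 21.1 TPM. The decoy receptors, which bind TRAIL without a working death domain, were at 6.11 and 5.22 TPM for TNFRSF10C and at 30.9 and 34.2 TPM for TNFRSF10D. Summed, the TPM of both death receptors over that of both decoys was 154 over 37.0 with the MBD2 shRNA, a ratio of 4.16, and 132 over 39.5 with the control, a ratio of 3.35. These receptor genes resemble each other in sequence, and how shared reads were assigned is not given in the sources used here, so their separate values are uncertain.

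FAS (ENSG00000026103, chromosome 10 from 90750414 to 90775542, plus strand), the receptor of FAS ligand, had 305 counts with the MBD2 shRNA and 213 with the control. Its level was 20.8 TPM (18.5 to 23.3) and 14.9 TPM (12.98 to 17.1), with a log2 fold change of 0.51 (0.25 to 0.77) and a 1.42-fold ratio. FASLG, its ligand, had 0 counts in both libraries. FAS overlaps ACTA2 on the opposite strand over 734 bases, and ACTA2 had 47 and 51 counts. TNFRSF10B overlaps RHOBTB2 on the opposite strand over 67 bases, with 280 and 283 counts in that gene, and RP11-875O11.2 over 951 bases, with 1 and 4 counts. Whether the counting used strand is not given in the sources used here, so reads in those stretches cannot be assigned with certainty. The genes that overlap TNFSF10, TNFSF15 and TNFRSF1B (AC007919.18, AL390240.1 and MIR4632) had 0 counts in both.

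The receptors without a death domain were low with the control, and they hold the member with the widest separation. TNFRSF9 (ENSG00000049249, chromosome 1 from 7979907 to 8000926, minus strand) encodes 4-1BB (CD137), a costimulatory receptor known from activated T cells. It had 73 counts with the MBD2 shRNA and 0 with the control, or 6.64 TPM (5.20 to 8.35) against 0, where 3 counts would be 0.280 TPM. Against 3 counts in the control library it would be 24.2-fold higher with the MBD2 shRNA. That figure leaves out the counting error of the 73 counts. The interval of its log2 fold change started at 4.26 and had no upper end. TNFSF9, the ligand of TNFRSF9, was present in both, at 11.8 and 7.47 TPM.

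TNFRSF1B (ENSG00000028137, chromosome 1 from 12227060 to 12269285, plus strand) encodes the second TNF receptor, which lacks a death domain. It had 18 counts with the MBD2 shRNA and 1 with the control, or 0.855 TPM (0.507 to 1.35) and 0.0487 TPM (0.00123 to 0.271). The ratio of normalized counts was 17.9, and the log2 fold change was 3.62 with a wide interval, from 1.498 to 9.54. Even with the MBD2 shRNA it was the lowest of the 10 members together with TNFSF15, whose interval overlaps its own.

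CD40 (ENSG00000101017, chromosome 20 from 44746911 to 44758502, plus strand) is the receptor through which CD40LG activates antigen-presenting cells, and it is also found on epithelium. It had 83 and 64 counts, or 8.38 TPM (6.67 to 10.4) and 6.63 TPM (5.10 to 8.46). Its log2 fold change was 0.36 with an interval from -0.12 to 0.86, so a difference was not detectable at this depth. CD40LG had 0 counts in both libraries.

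**Figure D3:**
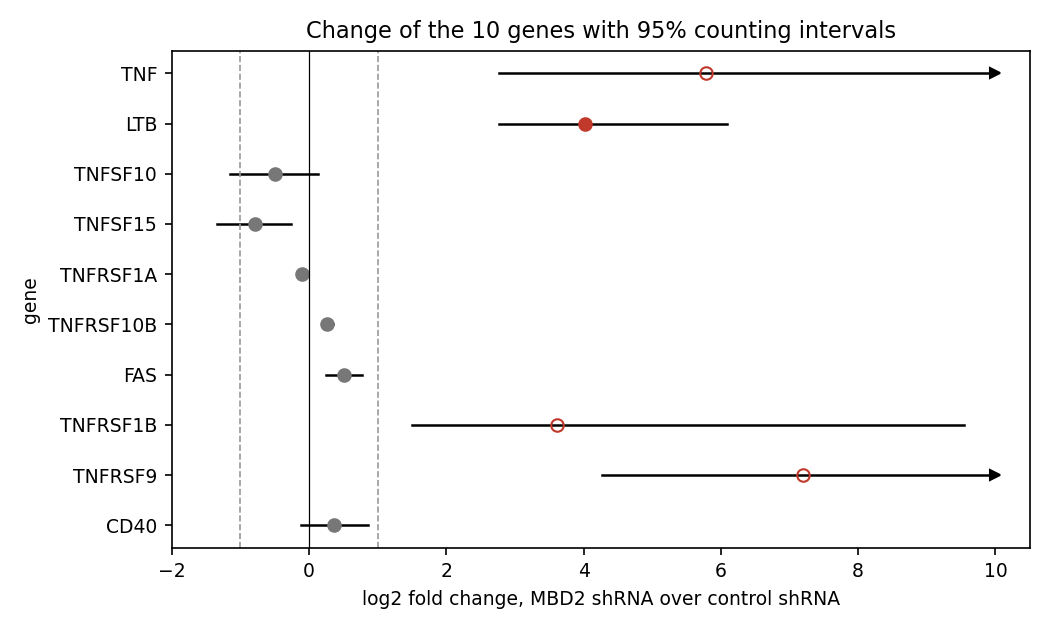
Log2 fold change (MBD2 shRNA over control) of each member with its 95% counting interval, where open circles mark members with 3 or fewer counts in the control library and arrows mark intervals without an upper end. The intervals of TNF, LTB, TNFRSF1B and TNFRSF9 start above 1, and those of TNFSF10 and CD40 include 0.

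Seen as a whole, the summed level of the 10 members was 590 TPM with the MBD2 shRNA and 583 TPM with the control. The 4 members above 1 made up 19.5 TPM of the first sum and 0.566 TPM of the second. The 6 receptors together were level, at 573 and 575 TPM, since the death domain receptors summed to 557 and 569 TPM, and the other receptors to 15.9 and 6.68 TPM. With the MBD2 shRNA the order of levels was TNFRSF1A, TNFRSF10B, FAS, LTB, CD40, TNFRSF9, TNFSF10, TNF, TNFSF15 and TNFRSF1B. The intervals of neighbours overlapped for LTB and CD40, CD40 and TNFRSF9, TNFSF10 and TNF, and TNFSF15 and TNFRSF1B. With the control the order was TNFRSF1A, TNFRSF10B, FAS, CD40, TNFSF10, TNFSF15, LTB and TNFRSF1B, with TNF and TNFRSF9 at 0 counts, and the intervals overlapped for CD40 and TNFSF10 and for LTB and TNFRSF1B. The first 3 places were therefore the same genes in both libraries.

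**Figure D4:**
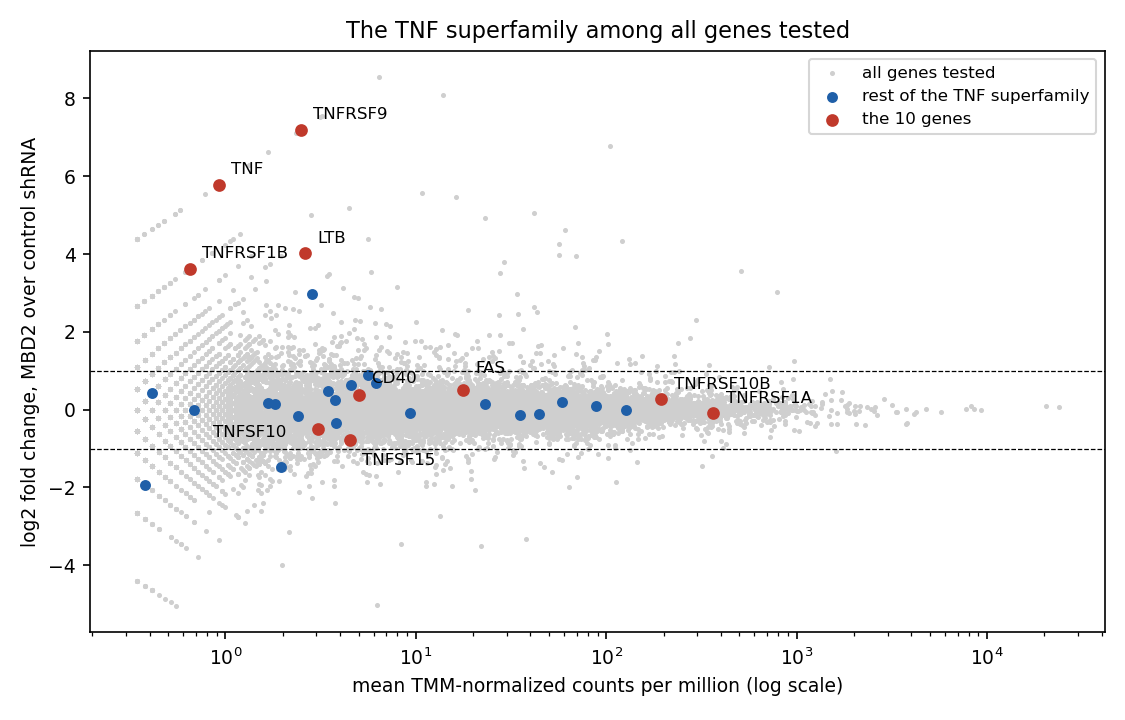
Log2 fold change (MBD2 shRNA over control) against mean level for the 17545 genes tested, with the members marked and dashed lines at 1 and -1. Members with high counts lie near 0 and the members above 1 lie among genes with few reads.

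The rest of the superfamily, 37 genes, is given beside the members. Since the members were chosen with this comparison known, nothing is read from a difference between them and their relatives. Of the 37 genes, 21 were tested, 1 lay above 1 and 2 below -1, with a median log2 fold change of 0.15. Over all genes tested, 5.48% lay above 1 and 5.07% below -1. Among the 14 other ligands 7 were tested, and TNFSF14 alone lay past 1. TNFSF14 encodes LIGHT, which like lymphotoxin binds LTBR. It had 74 counts with the MBD2 shRNA and 9 with the control, or 4.65 and 0.580 TPM, and a log2 fold change of 2.96 (2.03 to 4.22). TNFRSF14, its other receptor, had 7 and 0 counts, too few to be tested. The more abundant other ligands were CD70, at 15.5 and 10.2 TPM with a log2 fold change of 0.63, and TNFSF9, at 0.69 (0.24 to 1.14). TNFSF12, encoding TWEAK, had 33 and 37 counts and an interval that includes 0, from -0.90 to 0.54.

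Of the 23 other receptors 14 were tested, 0 lay above 1 and 2 below -1, with a median of 0.041. EDAR, the ectodysplasin receptor, had 15 and 42 counts and a log2 fold change of -1.46 (-2.45 to -0.61). TNFRSF13C, the BAFF receptor of B cells, had 2 and 9 counts, and its value of -1.93 had an interval from -5.43 to 0.094, which includes 0. The most abundant of them, LTBR, TNFRSF12A (911 and 795 counts) and TNFRSF21 (1330 and 1242 counts), lay inside these lines. TNFRSF25, the receptor of TNFSF15, had 26 and 23 counts.

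Downstream of the receptors, 26 adaptors and ubiquitin ligases were all tested, and 3 lay above 1, 0 below -1, with a median of 0.16. That is 11.5% above 1, beside 5.48% of all genes tested. Nothing is read from that difference, since the list was chosen with earlier results of these data known. TNFAIP3, the deubiquitinase A20 that shuts off signaling from the TNF receptor, had 1571 counts with the MBD2 shRNA and 81 with the control, a log2 fold change of 4.26 (3.95 to 4.61). BIRC3, the ubiquitin ligase cIAP2, had 2274 and 704 counts at 1.68 (1.56 to 1.81), and TNIP1, a partner of TNFAIP3, had 3270 and 1250 counts at 1.38 (1.28 to 1.47). All 3 had from 1571 to 3270 counts with the MBD2 shRNA, and their intervals are narrow. They are known as NF-kB target genes that restrain or shape the same pathway. RBCK1 (0.062) and TANK (-0.057) were abundant and near 0.

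The 12 genes of the death-inducing complex held 11 tested genes, and all 11 were higher with the MBD2 shRNA while 0 lay past 1, with a median of 0.26. Over all genes tested, 8582 of 17545 were higher, and the median was -0.0082. This list was chosen with earlier results of these data known, so nothing is read from that count. BID, which links death receptors to mitochondria, had 976 and 491 counts and a log2 fold change of 0.98 (0.82 to 1.14). CASP8, the initiator caspase, had 1096 and 931 counts with a log2 fold change of 0.23, and DAP3 had 1841 and 1543 counts with 0.25. Of the 9 sheddases and their regulators, which cut ligands and receptors from the membrane, 8 were tested and 0 lay past 1 or -1. ADAM17, the TNF-converting enzyme, was close to level at 1557 and 1460 counts (0.084), ADAM10 had 3981 and 5860 counts with a log2 fold change of -0.57 (-0.63 to -0.51), SPPL2A was at -0.081, and RHBDF2, a cofactor of ADAM17, had 1179 and 714 counts at 0.71.

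TNF, LTB and TNFRSF9 are also leukocyte genes, so markers of other cells are given beside them. Of 15 leukocyte markers 4 were tested, and their summed level was 21.9 TPM with the MBD2 shRNA and 17.3 TPM with the control. CD14 made most of both sums, with 152 and 126 counts, while LAPTM5 had 29 and 3 counts, CORO1A had 56 and 19 (log2 fold change 1.53) and NKG7 had 7 and 13. LAPTM5 had a log2 fold change of 3.07 (1.57 to 5.62). The defining marker PTPRC had 0 counts with the MBD2 shRNA and 1 with the control, CD3D, CD3E, MS4A1, CD68, LYZ and CD52 had 0 in both, and 8 of the 15 had 0 with the MBD2 shRNA against 6 with the control. Of 10 fibroblast and endothelial markers 2 were tested, and COL1A1 had 308 and 124 counts with a log2 fold change of 1.30 (0.998 to 1.62), in summed levels of 8.42 and 4.03 TPM. The other fibroblast genes were near 0, with LUM at 5 and 6 counts, COL3A1 at 1 and 6, COL1A2 at 0 and 1, and DCN at 1 in both. The part of such cells in the values of TNF, LTB and TNFRSF9 was not tested.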

How the data were processed

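The authors deposited 1 table of read counts and 1 of TPM per gene, covering both TFK1 libraries. The submitters' processing notes name fastp, HISAT2 2.1.0, featureCounts, DESeq 1.18.1 and GRCh38.p13, with no role or order. The tables name no build, and the deposited positions of 0 of the 10 members equal those of GENCODE 29 (GRCh38), so no sequence was read at them. Of 63723 lines, 46 without a gene were dropped, and repeated rows were reduced to 56638 genes. After that the TPM summed to 1000000 in each library. Columns of the authors' annotation served only for the pathway lists.

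TMM factors were computed with edgeR 4.0.16 (R 4.3.3), and 0.5 counts, scaled to library size, were added to each value as a prior. Genes needed 10 summed counts. Intervals (95%) are by the exact Clopper-Pearson method on how a gene's counts divide between the libraries, and by the exact Poisson method for TPM (scipy 1.17.1). The floor was 3 counts. The scripts were tested on simulated data. Genes named are the 10 members, MBD2, genes overlapping members, and in each list those past 1 or -1 and the 3 with the highest TPM. Ligand and receptor partners, neighbours of TNF and further markers were named after their values were seen. Members and lists were chosen with earlier results of these data known. Promoters and their coordinates come from RefSeq (GRCh38.p14). The alternatives were 3 other scalings, with DESeq2 1.42.0 size factors among them, 2 priors, 2 TPM pseudocounts, 2 filters and all deposited rows.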

Additional observations from a re-analysis of the deposited data

How the results depend on the processing

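Of 95 values of the 10 members under 10 alternatives, 91 stayed within their counting interval, 95 kept their sign and 0 reversed. The other 4 came with log2 of TPM plus 1, where TNF was 1.93, LTB 2.75, TNFRSF1B 0.82 and TNFRSF9 2.93, so that 3 members in place of 4 lay past 1. With at least 100 summed counts 5 members were tested and 0 lay past 1 or -1, since the filter removed those 4 members. Part of the tally was fixed in advance. The 2 filters leave each fold change as it was, so their 10 and 5 values repeat the main ones. TNF and TNFRSF9 had 0 control counts, so their sign could not change, and their intervals have no upper end. The tally is therefore no measure of stability. For the other superfamily genes, 3 of 21 lay past 1 or -1. This became 1 with log2 of TPM plus 1, 9 of 28 with at least 1 count, and 0 of 13 with at least 100 counts. With the members at 3 or fewer counts in a library placed at their bound, an alternative chosen after seeing the data, the members' median is again 0.44, which says nothing of stability, since these members stay above the middle values, FAS and CD40. No paired analysis was possible because there is 1 library on each side. Depth limits the low members, such as TNFRSF1B with 18 and 1 counts, and how far separate cultures vary is not known here.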

Other observations

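The pathway lists in the deposited annotation were looked at after values had been seen and share genes with the members. Of 105 genes annotated to the TNF signaling pathway, 97 were tested, 23 lay above 1 and 0 below -1, with a median log2 fold change of 0.27. Without the members, 93 were tested, 21 lay above 1 and 0 below -1, and the median was 0.26. The broader apoptosis list, 130 genes, had 116 tested, 8 above 1 and 2 below -1, with a median of 0.14. The shares above 1 were 23.7%, 22.6% and 6.90% in that order. Over all genes tested, 5.48% lay above 1 and 5.07% below -1. TNF is among the genes of both lists, and over all genes tested the median was -0.0082.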
